A study of Mus musculus with 4 samples.

Results

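The BCL-2 family of apoptosis regulators was examined in unstimulated L929 and NIH3T3 cells through 10 genes: Bid, Bcl2l11, Bbc3, Pmaip1, Bax, Bak1, Bcl2, Bcl2l1, Mcl1 and Bnip3. Every probe set that the platform annotation assigns to 1 of these genes alone was taken, which gave 28 probe sets for 9 of the 10 genes, out of 18193 genes with a probe set of their own. No probe set carried the symbol Bax, and Bax is not analysed here. Both lines are mouse fibroblasts: L929 derives from adult connective tissue and is described in the series title as sensitive to necrosis, and NIH3T3 derives from embryos and is described as sensitive to apoptosis. Total RNA of 2 samples per line was hybridised to Affymetrix whole-genome mouse expression arrays, with no stimulus and no genetic change in either group. Each way of dying is represented by a single line, so the line and its death response cannot be told apart. Whether the samples of a line came from separate cultures is not stated, and the p-values therefore cover only the spread among these samples, possibly a technical one.

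The BCL-2 family decides whether the outer mitochondrial membrane is opened. BH3-only proteins such as BID, BIM, PUMA and NOXA sense upstream signals. The effectors BAX and BAK form the pores that release cytochrome c, and the guardians BCL-2, BCL-XL and MCL-1 hold both groups in check. BNIP3 is an atypical BH3-type protein of mitochondria that is best known as a hypoxia-induced receptor for mitophagy, the removal of mitochondria by autophagy. Much of this control lies in cleavage, phosphorylation and turnover of the proteins, which transcript levels do not show.

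All signals are MAS5 values without a physical unit, brought here to the same trimmed mean on each array. NIH3T3 replicate 2 was brighter as deposited, with a median of 38.3 against 23.5 to 24.01 on the other 3 arrays, and after scaling the medians lay between 25.3 and 27.9. Of 14 fibroblast markers with a probe set, 11 were above the filter level of 17.3 on all 4 arrays, Thy1 among them, and Fap was below it on every array. Lum and Dcn passed that level on 1 of 2 L929 arrays and were bright in NIH3T3. Thy1 was near the level in L929 and bright in NIH3T3, at 18.02 and 30.0 against 2193 and 2253. Summed fibroblast marker signal was 38948 to 40417 in L929 and 36506 to 47107 in NIH3T3. The same sum was 129 to 147 and 152 to 173 for 7 epithelial markers, 59.0 to 78.1 and 55.6 to 78.3 for 5 endothelial markers, and 152 to 165 and 187 to 219 for 6 macrophage and leukocyte markers. Below the filter level on every array were 3 epithelial markers (Krt18, Krt19, Cldn4), 3 endothelial (Pecam1, Tek, Vwf) and 3 macrophage and leukocyte (Ptprc, Itgam, Cd3e). Above it on all 4 arrays were Epcam and Krt8, and Adgre1, Csf1r and Cd68, of which Cd68 was lower in L929 (log2 difference -0.89, limma adjusted p = 0.015). The part of such markers in the results was not tested.

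Transcripts of members with opposed roles were higher in L929: the BH3-only genes Bid, by 2.83- to 7.19-fold over its probe sets, and Bbc3, by 2.33-fold, and the guardian Mcl1, by 2.15- to 3.14-fold. Bnip3 was 3.56-fold lower in L929. Bak1 and Bcl2l1 were not called on any probe set, and Bcl2 and Bcl2l11 were each called higher on 1 probe set and not on the others. Pmaip1 was too dim to be tested. A probe set entered the test when 1 line or both exceeded 17.3 on each of its arrays, and was called if the Benjamini-Hochberg adjusted p of limma was under 0.05 with a fold above 1.5.

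Of the 28 probe sets, 25 were tested, of which 12 were called higher in L929, 1 was called lower and 12 were not called. Over all 27438 tested probe sets 31.6% were called, 14.9% higher and 16.7% lower, against 52.0% of the members' probe sets, 48.0% higher and 4% lower. Of the 12 higher calls, 6 belonged to Mcl1 and 3 to Bid, and probe sets of 1 gene are not independent. The members were also chosen with earlier results of these data known, so these shares are a description and not a test of the family. By the brightest tested probe set of each gene, 4 of 8 members were higher and 1 was lower, where 35.2% of all 12676 genes were called, 17.4% higher and 17.8% lower. The 4 higher members were Bid, Bbc3, Mcl1 and Bcl2l11, the last through 1435448_at, with means of 193 in L929 and 114 in NIH3T3. The 4 other tested Bcl2l11 sets were not called, and 1456005_a_at was nearly as bright, with means of 143 and 154. The lines did not overlap on 18 of the 25 tested probe sets, or 72.0%, which is near the 69.9% of all tested probe sets. The median log2 difference, L929 minus NIH3T3, was 0.72 over the members' tested probe sets and -0.01 over all tested probe sets. Without scaling the median of all probe sets moved to -0.28 and higher calls made up 28.5% of all calls in place of 47.2%, and 8 member probe sets were called higher and 1 lower.

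**Figure D1:**
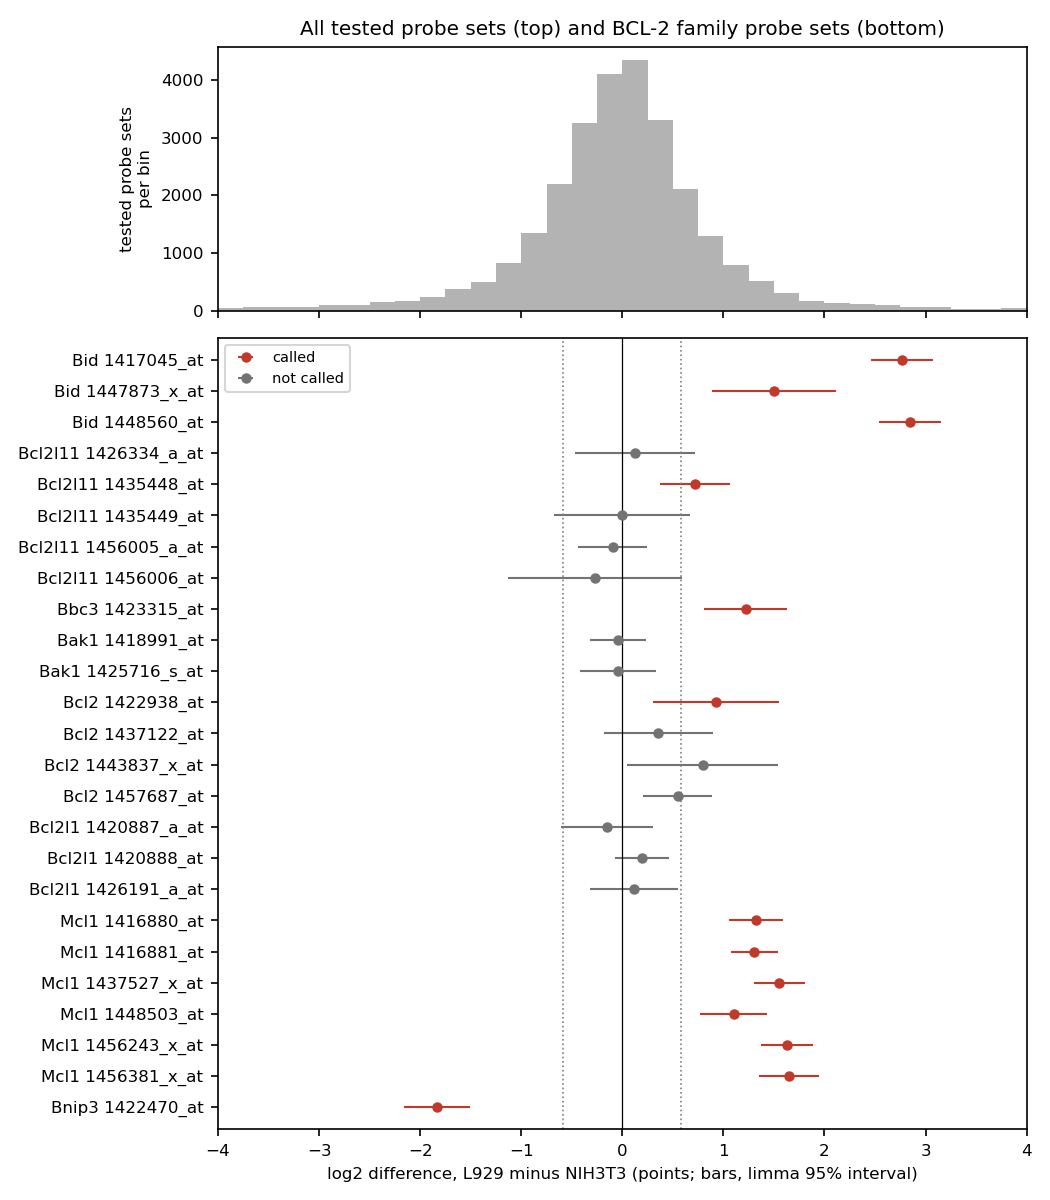
Log2 difference between L929 and NIH3T3 as a histogram of all tested probe sets (top, bins of 0.25) and for each tested BCL-2 family probe set (bottom; points, limma estimate; bars, 95% interval; dotted lines, the 1.5-fold threshold; red, called). Bid, Bbc3 and Mcl1 lie to the right at 1.10 to 2.85, Bnip3 lies to the left at -1.83, and the intervals of Bak1 and Bcl2l1 span 0.

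Promoter sequence is shown for 5 of the 6 members with a called probe set, as the 250 bases before the transcription start in RefSeq on GRCm38.p6, each written 5' to 3' on the gene's own strand. The stretches lie at chr6:120916825-120917074 on the minus strand for Bid, chr3:95658471-95658720 on the plus strand for Mcl1, chr7:138909507-138909756 on the minus strand for Bnip3, chr2:128125788-128126037 on the plus strand for the first of 2 starts listed for Bcl2l11, and chr7:16310011-16310260 on the plus strand for the second of 3 starts listed for Bbc3. Capitals mark every match, on either strand, to 5 motifs. The core of the hypoxia response element is ACGTG. The E-box is CACGTG and contains that core. The FOXO motif is GTAAACA. The composite site of CHOP and ATF4 is TTGCATCA. The GC box is GGGCGG. Matches can overlap. For Bcl2l11 and Bbc3 the start shown is the one that holds the FOXO motif. Bcl2, also called on 1 probe set, is not shown: its stretch held 7 GC boxes and no other match.
Bid: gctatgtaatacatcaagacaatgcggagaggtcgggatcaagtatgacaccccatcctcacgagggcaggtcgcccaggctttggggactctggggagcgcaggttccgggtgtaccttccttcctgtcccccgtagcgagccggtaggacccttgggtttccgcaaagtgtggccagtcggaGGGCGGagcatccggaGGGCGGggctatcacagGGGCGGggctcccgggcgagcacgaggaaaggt
Mcl1: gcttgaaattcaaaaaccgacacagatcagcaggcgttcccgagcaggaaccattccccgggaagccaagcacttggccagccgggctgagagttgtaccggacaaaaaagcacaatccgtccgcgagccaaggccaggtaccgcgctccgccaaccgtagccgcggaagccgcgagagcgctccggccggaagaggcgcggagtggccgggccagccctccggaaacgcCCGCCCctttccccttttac
Bnip3: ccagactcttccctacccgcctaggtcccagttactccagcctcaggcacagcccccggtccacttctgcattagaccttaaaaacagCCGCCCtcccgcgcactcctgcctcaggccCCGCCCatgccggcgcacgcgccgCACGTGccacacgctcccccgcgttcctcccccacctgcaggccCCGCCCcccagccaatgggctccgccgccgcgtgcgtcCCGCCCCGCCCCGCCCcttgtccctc
Bcl2l11: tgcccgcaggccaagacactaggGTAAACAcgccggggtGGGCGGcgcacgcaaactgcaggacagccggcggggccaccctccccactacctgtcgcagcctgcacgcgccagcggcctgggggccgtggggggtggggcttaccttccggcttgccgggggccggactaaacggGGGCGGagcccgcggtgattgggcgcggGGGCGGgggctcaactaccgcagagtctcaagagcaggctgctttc
Bbc3: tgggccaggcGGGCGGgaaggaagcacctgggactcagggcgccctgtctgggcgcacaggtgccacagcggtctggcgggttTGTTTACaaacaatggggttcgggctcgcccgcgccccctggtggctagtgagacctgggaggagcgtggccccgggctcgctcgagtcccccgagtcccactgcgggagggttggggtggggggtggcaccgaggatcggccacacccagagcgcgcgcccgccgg

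Bid and Mcl1, which were higher in L929 on every probe set, held GC boxes as their only matches, with 3 in Bid and 1 in Mcl1. A GC box occurred in 32.7% of the 32851 RefSeq promoter stretches of the same length. The Bnip3 stretch held 6 GC boxes and a CACGTG 108 bases before the start, which gives an ACGTG on each strand. The same motif stood 64 bases before the third start of Bbc3, which was higher in L929, and 9 bases before the start of Bax. CACGTG occurred in 6.02% and ACGTG in 16.6% of all stretches. The FOXO motif stood 227 bases before the start in Bcl2l11 and 167 bases before it in Bbc3, and occurred in 3.17% of all stretches. It was absent from the other start of Bcl2l11 and from both other starts of Bbc3. TTGCATCA, found in 0.791% of all stretches, matched in none of the member promoters searched. A match describes letters in these windows and does not show a bound site.

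Bid encodes the BH3-only protein that caspase-8 cleaves to carry a death receptor signal to mitochondria. Its probe set 1417045_at measured 1805 and 1839 in L929 and 298 and 229.8 in NIH3T3. Both L929 arrays were far above both NIH3T3 arrays, with means of 1822 ± 24.5 against 263.7 ± 47.9 (SD, n = 2), and the difference was 6.79-fold (95% interval 5.49 to 8.40, limma adjusted p = 1.8e-06). Probe set 1448560_at gave 683 and 612 in L929 and 76.9 and 89.5 in NIH3T3, a 7.19-fold difference (5.83 to 8.88, adjusted p = 1.4e-06). Of all tested probe sets, 1.30% exceeded the first and 1.21% the second in excess in L929. The third, 1447873_x_at, whose suffix marks probes that can also match other sequences, was dimmer, at 105 and 98.8 in L929 and 23.4 and 39.9 in NIH3T3. It differed 2.83-fold (1.85 to 4.32, adjusted p = 0.0025), in the same direction with no overlap between lines. All 3 Bid probe sets were called under each of the 14 alternative settings, with log2 differences from 1.08 to 2.95.

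Bbc3 encodes PUMA, a BH3-only protein known as a p53 target that can bind all guardians. Its only probe set, 1423315_at, measured 181 and 186 in L929 and 64.6 and 85.1 in NIH3T3. The L929 arrays lay close together and above both NIH3T3 arrays, and the difference was 2.33-fold (1.75 to 3.10, adjusted p = 0.00094). The call was lost without scaling, where the log2 difference was 0.95 (adjusted p = 0.14).

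Bcl2l11 encodes BIM, a BH3-only protein made in several spliced forms and bound by all guardians. Its 5 tested probe sets disagreed. Probe set 1435448_at measured 177 and 209 in L929 and 111 and 116 in NIH3T3, with no overlap, a 1.65-fold difference (1.30 to 2.10, adjusted p = 0.0059). The brightness of 1456005_a_at, whose suffix marks a set that detects several transcripts of a gene, was 143 and 142 in L929 and 142 and 165 in NIH3T3, and its log2 difference of -0.10 (-0.44 to 0.25, adjusted p = 0.65) had an interval that did not meet that of 1435448_at (0.37 to 1.07). The difference between probe sets itself was not tested. On 1435449_at the spread within a line was larger than between lines, with 59.2 and 92.8 in L929 and 57.5 and 95.8 in NIH3T3. The 2 dimmest were 1426334_a_at, at 43.7 and 40.3 in L929 and 42.6 and 33.4 in NIH3T3, and 1456006_at, at 44.1 and 17.2 in L929 and 40.9 and 31.2 in NIH3T3. They overlapped between lines and gave log2 differences of 0.13 (-0.47 to 0.72) and -0.27 (-1.13 to 0.59), and 1 of 2 L929 arrays passed the filter level on the second. The single call was lost without scaling (log2 difference 0.45, adjusted p = 0.57).

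Pmaip1 encodes NOXA, a BH3-only protein with a preference for MCL-1. Its only probe set, 1418203_at, read 4.69 and 0.329 in L929 and 0.712 and 1.19 in NIH3T3. All 4 arrays lay below the filter level, so no difference between the lines is given.

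**Figure D2:**
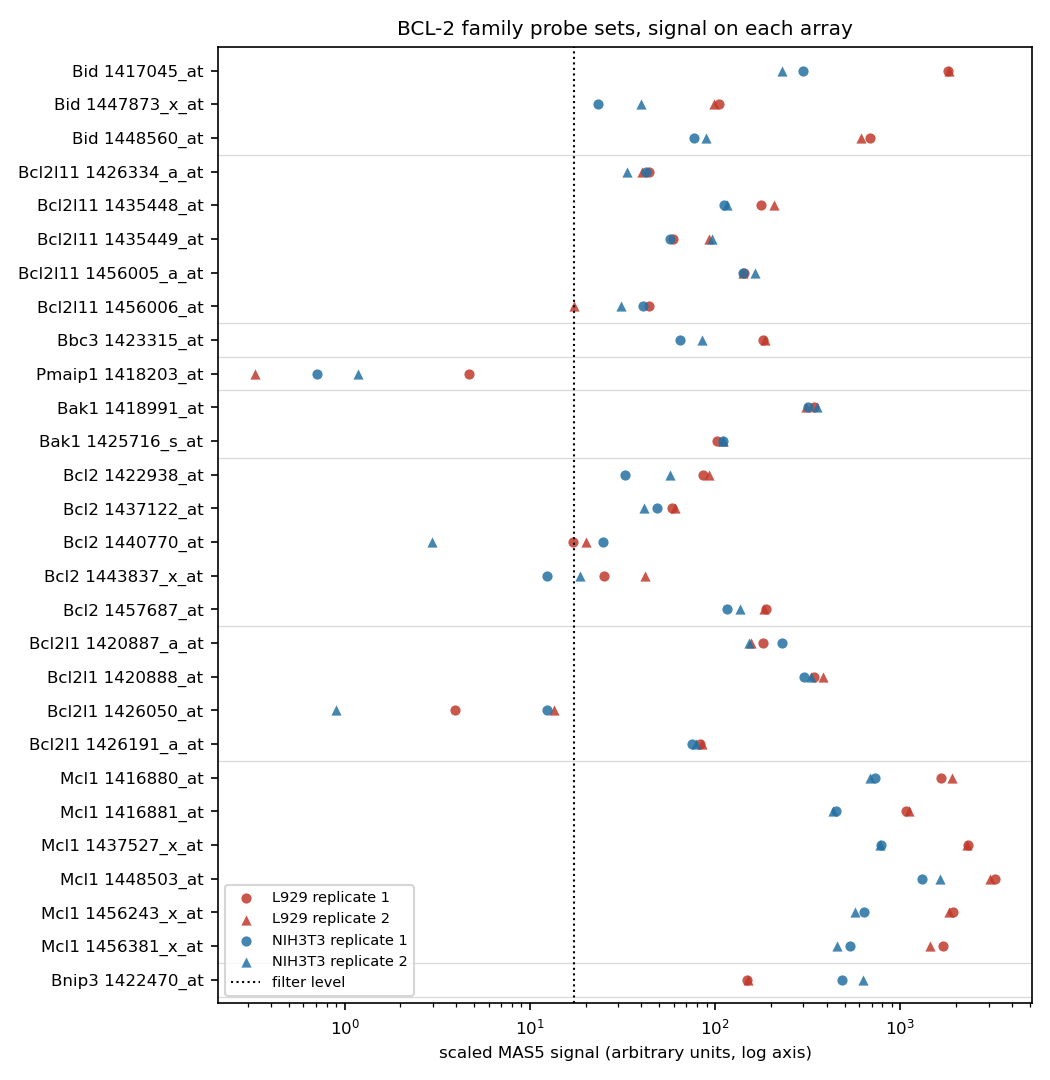
Scaled MAS5 signal of all 28 BCL-2 family probe sets on each of the 4 arrays (log axis, arbitrary units; red, L929; blue, NIH3T3; circles, replicate 1; triangles, replicate 2; dotted line, the filter level of 17.3). On Bid, Bbc3 and Mcl1 the red symbols lie to the right of the blue ones, on Bnip3 to the left, and on Bak1 they coincide.

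Among the effectors, only Bak1 could be measured, and its transcript gave no call. BAK sits in the outer mitochondrial membrane and, like BAX, can form the pores that release cytochrome c. Probe set 1418991_at measured 343 and 309 in L929 and 317 and 355 in NIH3T3, and the arrays of the lines interleaved. Its log2 difference was -0.04 with an interval from -0.32 to 0.23 (adjusted p = 0.81), which leaves room for a change of up to 1.24-fold lower or 1.17-fold higher in L929. The second probe set, 1425716_s_at, measured 103 and 110.2 in L929 and 109.9 and 110.2 in NIH3T3, with a log2 difference of -0.05 (-0.42 to 0.33, adjusted p = 0.85). Its suffix marks a set shared by transcripts of several genes. The sign of either value turned under other settings.

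Mcl1, a guardian, was called higher in L929 on all of its probe sets. It encodes a short-lived protein that binds BAK and BIM and is replenished by continued transcription. The brightest probe set, 1448503_at, measured 3246 and 3061 in L929 and 1314 and 1633 in NIH3T3, a 2.15-fold difference (1.70 to 2.70, adjusted p = 0.00049). On 1437527_x_at the signals were 2333 and 2288 in L929 against 788 and 775 in NIH3T3, a 2.94-fold difference (2.47 to 3.49, adjusted p = 1.3e-05). The transcript was also bright on 1416880_at, with 1662 and 1903 in L929 against 727 and 689.8, and on 1416881_at, with 1076 and 1120.2 against 448 and 432. On the remaining sets the signals were 1929 and 1834 against 636 and 569 for 1456243_x_at, and 1691 and 1441 against 534 and 453 for 1456381_x_at. On all 6 Mcl1 probe sets both L929 arrays exceeded both NIH3T3 arrays. The 3 sets with the suffix _x_at gave log2 differences of 1.55, 1.63 and 1.65, above the 1.10, 1.30 and 1.32 of the 3 others. Between 3.74% and 7.79% of all tested probe sets had a larger excess in L929 than an Mcl1 probe set. Leaving out any 1 array kept all 6 calls, while without scaling 1416881_at missed the threshold (log2 difference 1.02, adjusted p = 0.052).

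Bcl2 leaned toward L929 with calls that did not hold across probe sets. It encodes the founding guardian of the family. On 1422938_at the signals were 86.4 and 92.7 in L929 and 32.5 and 57.3 in NIH3T3, a 1.90-fold difference (1.23 to 2.92, adjusted p = 0.027). That call was lost without L929 replicate 1 (adjusted p = 0.058), without L929 replicate 2 (0.094) and without NIH3T3 replicate 1 (0.11), where the log2 difference was 0.58. Over the 14 alternatives it was kept in 8, and the adjusted p ranged from 0.011 to 0.32. The brightest set, 1457687_at, measured 189 and 184.5 in L929 and 116 and 136 in NIH3T3, a 1.46-fold difference (adjusted p = 0.019) under the fold threshold, which it passed without NIH3T3 replicate 2 (log2 difference 0.65, adjusted p = 0.027), with median scaling (0.61, adjusted p = 0.011) and with quantile normalization (0.62, adjusted p = 0.012). The dimmer sets were 1437122_at, with 58.8 and 60.6 in L929 against 48.7 and 41.3, and 1443837_x_at, with 25.1 and 41.7 against 12.4 and 18.8. Their log2 differences of 0.36 and 0.79 had adjusted p = 0.27 and 0.088, and the latter exceeded the filter level on 1 of 2 NIH3T3 arrays. L929 exceeded NIH3T3 on both arrays for all 4 tested sets, and 1440770_at, at 17.1 and 20.1 in L929 and 24.9 and 2.95 in NIH3T3, was not tested.

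Bcl2l1, which encodes BCL-XL and a shorter spliced form that promotes death, was not called. The brightest set, 1420888_at, measured 343 and 384 in L929 and 303 and 329 in NIH3T3, a log2 difference of 0.20 (-0.07 to 0.46, adjusted p = 0.22). Probe set 1426191_a_at gave 82.9 and 85.1 in L929 against 75.6 and 78.7 in NIH3T3, a log2 difference of 0.11 (-0.32 to 0.55, adjusted p = 0.67). On 1420887_a_at the NIH3T3 replicates stood further apart, at 231 and 152, than the lines did, with 181 and 156 in L929 and a log2 difference of -0.15 (-0.61 to 0.30, adjusted p = 0.58). The fourth set, 1426050_at, lay below the filter level on every array, at 0.902 to 13.5. Across the 3 tested sets the intervals reach a 1.52-fold lower and a 1.46-fold higher level in L929, so a change of Bcl2l1 near the 1.5-fold threshold was not excluded.

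Bnip3 was lower in L929. Its only probe set, 1422470_at, measured 148 and 149.8 in L929 and 483 and 626 in NIH3T3. The L929 arrays lay close together and the NIH3T3 arrays lay apart from each other but well above both, with means of 149 ± 1.35 against 554 ± 101 (SD, n = 2). The difference was 3.56-fold (2.84 to 4.46, adjusted p = 2.5e-05), and 4.39% of all tested probe sets had a larger deficit in L929. Bnip3 was called lower in all 14 alternatives, with log2 differences from -2.11 to -1.65.

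Other genes named for the BCL-2 family had 2 higher and 0 lower calls among 12 tested, with a median log2 difference of -0.12 against 0.01 over all genes. The share called was 16.7%, below the 35.2% of all tested genes, of which 17.4% were called higher and 17.8% lower. Bcl2l2, the guardian BCL-W, measured 252 ± 13.7 in L929 against 162 ± 18.4 (log2 difference 0.62, adjusted p = 0.0061), with its 3 tested probe sets from 0.04 to 1.56. Bcl2l15 was dim, at 31.99 ± 2.95 in L929 and below the filter level on both NIH3T3 arrays, and at least 1.85-fold higher (adjusted p = 0.0048). Bok, an effector-like member, measured 580.2 ± 5.35 against 388 ± 4.50, a log2 difference of 0.57 (adjusted p = 0.002) just under the fold threshold. Bcl2l12, at -0.57 (adjusted p = 0.046), also missed it. The BH3-only genes Bad, Hrk, Bmf and Bik gave log2 differences of 0.39, -0.39, -0.28 and -0.43 with adjusted p from 0.061 to 0.56, with Bmf above the filter level on 1 of 2 L929 arrays and Bik on 0. Bcl2l13, Bclaf1, Bnip1 and Bnip2 stood at -0.0022, -0.20, -0.23 and -0.04 and were not called. The number of higher calls was 1 without L929 replicate 2, without NIH3T3 replicate 1, without scaling, with an offset of 32 and with the stricter filter, and 3 with median scaling or quantile normalization. With an offset of 1 the list had 1 lower call. Bcl2l10, Bcl2l14 and Bnipl were too dim to test, and the genes of the Bcl2a1 cluster and Bnip3l share their probe sets with close copies and, like Bcl2l16, are not analysed here.

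**Figure D3:**
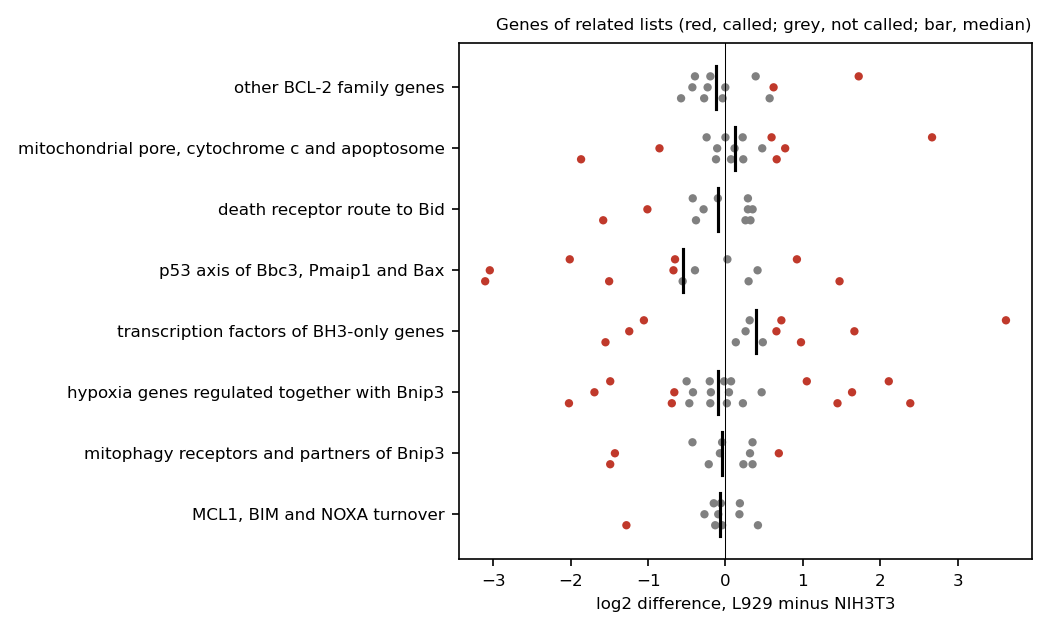
Log2 difference between L929 and NIH3T3 for the tested genes of 8 lists around the BCL-2 family (1 point per gene from its brightest tested probe set; red, called; grey, not called; black bars, medians). The p53 axis has the lowest median, -0.55, and the list of transcription factors of BH3-only genes, which includes Trib3, the highest, 0.40, with calls in both directions in each.

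The counts of the lists that follow are to be read against the 35.2% of all tested genes that were called. Shares called were 18.2% for the death receptor route, 40% for the mitochondrial list, 61.5% for the p53 axis, 66.7% for the transcription factor list, 45.5% for hypoxia genes, 27.3% for mitophagy genes and 10% for turnover genes.

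Upstream of Bid, the death receptor route had 0 of 11 tested genes higher and 2 lower in L929, with a median of -0.10. The receptor Tnfrsf10b measured 19.4 ± 2.11 in L929 against 47.2 ± 5.13 (log2 difference -1.01, adjusted p = 0.015). Fas was below the filter level on both L929 arrays and averaged 27.1 ± 10.8 in NIH3T3, so that L929 was lower by at least 1.51-fold (adjusted p = 0.0049). Casp8, whose product cleaves BID, differed by 0.29 (adjusted p = 0.083), and its inhibitor Cflar by -0.38 (adjusted p = 0.12) on its brightest probe set, while its 4 tested sets ranged up to 1.70. The list had 1 lower call without L929 replicate 1 or when probe sets were filtered by their mean, and 0 with the stricter filter or when NIH3T3 replicate 2 was left out.

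In the list of mitochondrial pore, cytochrome c and apoptosome genes, which includes genes of the inner membrane and of fission, 4 of 15 tested were higher and 2 lower, with a median of 0.12. Endog, a mitochondrial nuclease, measured 147 ± 21.8 in L929 and 19.0 ± 17.2 in NIH3T3, with a single array past the filter level (log2 difference 2.67, adjusted p = 0.00099). Casp9, the caspase of the apoptosome, differed by 0.77 (adjusted p = 0.015) and the caspase inhibitor Xiap by 0.66 (adjusted p = 0.0026), with probe sets from 0.67 to 2.60 and from 0.19 to 1.001. Among the genes lower in L929, Oma1, a protease that acts on the inner membrane protein OPA1, measured 59.6 ± 14.8 against 236 ± 18.2 (log2 difference -1.87, adjusted p = 1e-04), and Dnm1l, the fission GTPase, differed by -0.85 (adjusted p = 0.00024). Apaf1, the scaffold of the apoptosome, was not called, with 166 ± 1.37 in L929 and 166 ± 8.89 in NIH3T3. The higher count was 2 without L929 replicate 1, L929 replicate 2 or NIH3T3 replicate 2, and 1 without scaling.

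Genes of the p53 axis, to which Bbc3, Pmaip1 and Bax belong, were lower for 6 of 13 tested members and higher for 2, with a median of -0.55. Trp53 itself had no probe set of its own, and Cdkn2a and Perp were too dim to test. Zmat3, an RNA-binding p53 target, measured 60.8 ± 10.8 in L929 against 584 ± 81.9 (log2 difference -3.11, adjusted p = 2e-06), Ccng1 (cyclin G1) differed by -2.01 (adjusted p = 3.5e-06), and Trp53inp1 by -3.05 (adjusted p = 0.00054), where 1 of 2 L929 arrays passed the filter level. In the direction of Bbc3, Gadd45a and Sesn2 were higher by 1.47 and 0.92 (adjusted p = 2.9e-05 and 0.00072). Thus Bbc3 went with the 2 higher genes and against the 6 lower ones. A list of transcription factors known to act on BH3-only genes, which also holds the pseudokinase Trib3, had 5 of 12 tested genes higher and 3 lower, with a median of 0.40. The stress factor Ddit3 (CHOP) measured 1009.5 ± 79.5 in L929 against 312 ± 26.1 (log2 difference 1.67, adjusted p = 9.3e-06), and its target Trib3 differed by 3.63 (adjusted p = 1.4e-06). Foxo3, known to activate Bcl2l11 and Bbc3, differed by 0.98 (adjusted p = 0.002) on its brightest probe set, with its 3 tested sets from 0.31 to 0.98. Its relatives Foxo1 and Foxo4 were lower, by -1.05 (adjusted p = 0.0032) and -1.55 (adjusted p = 0.013), but 1 of 2 L929 arrays was above the filter level for Foxo4 and another Foxo4 probe set gave 1.13, and Jun differed by -1.24 (adjusted p = 6e-05). From this list 3 genes were called higher without L929 replicate 2 or NIH3T3 replicate 2, and 2 without scaling, where 1 gene of the p53 axis was called higher.

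The hypoxia genes listed with Bnip3 were called in both directions. Of 22 tested, 5 were higher and 5 lower in L929, with a median of -0.10. Like Bnip3, the glucose transporter Slc2a1 was lower, at 438 ± 76.8 in L929 against 1792 ± 1.71 (log2 difference -2.02, adjusted p = 7.3e-06), and so were the kinase Pdk1 (-1.69, adjusted p = 0.00018) and the collagen hydroxylase subunit P4ha2 (-1.49, adjusted p = 0.00042). Opposite to Bnip3, the HIF hydroxylase Egln3 measured 485 ± 49.9 in L929 and 86.0 ± 5.72 in NIH3T3 (2.39, adjusted p = 3.1e-06), Car9 differed by 2.11 (adjusted p = 0.00072), where 1 of 2 NIH3T3 arrays passed the filter level, and Pfkfb4 by 1.64 (adjusted p = 0.00015). Hif1a itself stood at -0.19 (adjusted p = 0.24), with its 4 probe sets from -0.38 to 0.54. Among mitophagy receptors and the autophagy proteins they bind, 1 of 11 tested genes was higher and 2 were lower, with a median of -0.04. The lower genes encode proteins of the family that BNIP3 binds: Gabarapl1 measured 381 ± 21.0 in L929 and 1088 ± 129 in NIH3T3 (-1.49, adjusted p = 2.2e-05) and Map1lc3a 425 ± 18.4 and 1159 ± 50.9 (-1.43, adjusted p = 1.3e-05). Of the same protein family, Gabarap (-0.04, adjusted p = 0.82), Gabarapl2 (-0.43, adjusted p = 0.02, with another set at 0.34) and Map1lc3b (-0.22, adjusted p = 0.18) were not called. Rheb was the higher gene (0.69, adjusted p = 0.0036). The higher count of this list was 0 without L929 replicate 1, without L929 replicate 2 or without scaling, and 2 without NIH3T3 replicate 2.

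Genes for turnover of the MCL-1, BIM and NOXA proteins were mostly not called. Of 10 tested, 0 were higher and 1 was lower, with a median of -0.08. The lower gene, Usp9x, encodes a deubiquitinase that stabilises MCL-1 and measured 199.6 ± 9.80 in L929 against 498 ± 52.0 (log2 difference -1.28, adjusted p = 6e-05), in the opposite direction to Mcl1, with all of its 7 tested probe sets between -1.79 and -0.84. The ubiquitin ligases Huwe1 and Fbxw7, which mark MCL-1 for degradation, differed by -0.27 (adjusted p = 0.093) and 0.42 (adjusted p = 0.049) on their brightest sets and were not called. The 4 tested Huwe1 sets ranged from -1.37 to 0.48.

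Gene order on GRCm38.p6 was used to ask whether a member's neighbours differed with it, taking the 5 nearest tested genes on each side. Over all tested genes 17.4% were called higher and 17.8% lower. Around Bid on chromosome 6, 0 of 10 neighbours were higher and 2 were lower, in a range of -0.92 to 0.48, and the adjacent family gene Bcl2l13 stood at -0.0022. Around Mcl1 on chromosome 3, 6 of 10 were higher and 1 was lower, with a median of 0.85. These included the adjacent Adamtsl4 (1.95, adjusted p = 2.6e-05) and Ensa (0.77, adjusted p = 0.00043) and, 3 tested genes away, Ctsk, cathepsin K (4.36, adjusted p = 8.7e-07). Around Bnip3, 0 of 10 neighbours were called, and around Bbc3 2 were higher and 0 lower. Bcl2l1, which was not called, had 5 higher and 1 lower neighbour, with a median of 0.76. Bcl2l11 had 2 higher and 1 lower, and Bak1 and Bcl2 each had 0 higher and 3 lower. The neighbourhoods were chosen after the members' values had been seen, and DNA copy number was not measured.

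**Figure D4:**
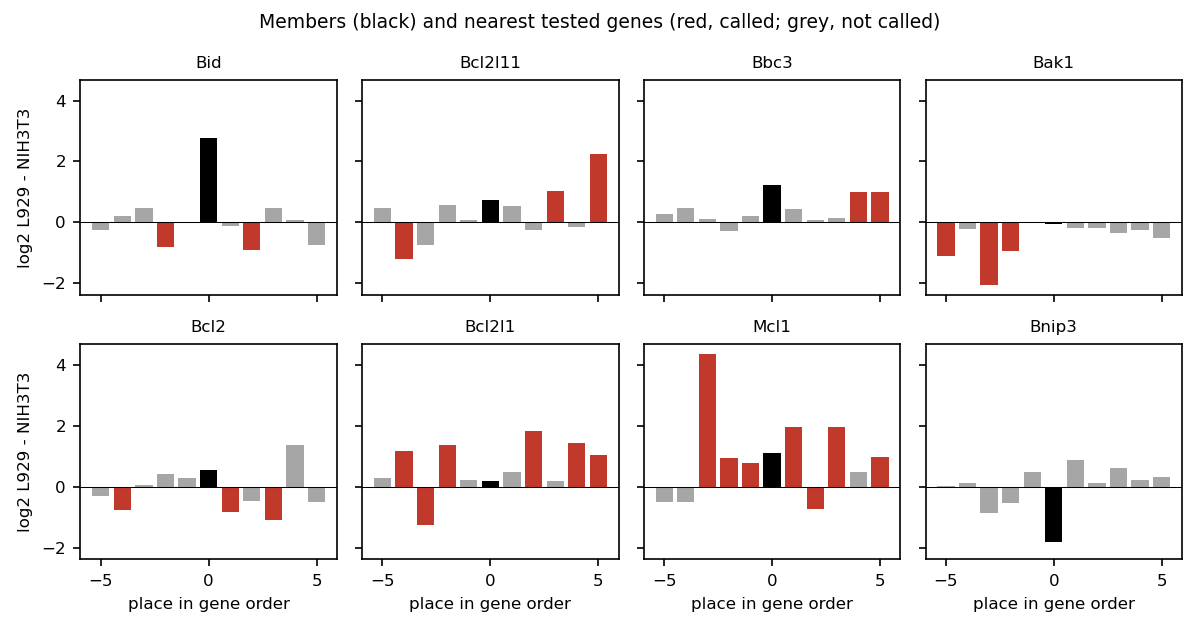
Log2 difference of each member (black, by its brightest tested probe set) and of the 5 nearest tested genes on either side in gene order (red, called; grey, not called). Bid and Bnip3 stand apart from their neighbours, while 6 of the 10 neighbours of Mcl1 are called higher.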

How the data were processed

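RNA of 2 L929 and 2 NIH3T3 samples was measured on 1-colour arrays. The deposited table holds 1 signal intensity per probe set and array, which per the submitters' processing notes is a MAS5 value. Not given in the sources used here are the MAS5 version, its scaling target and a genome build. Genes were named from the 34945 of 45037 non-control probe sets with 1 symbol in the platform annotation. Of the rest, 932 had several symbols and 9160 none.

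Each array was scaled to a common mean trimmed by 2% at each end, 8.01 (the 25th percentile) was added and log2 was taken, so fold changes of dim genes are understated. Probe sets with both arrays of at least 1 line above 17.3 (the 40th percentile, not a detection limit) were compared by limma's moderated linear model, with its prior variance following the mean (limma 3.58.1, R 4.3.3), and p-values were adjusted over all tested probe sets, or over all tested genes for gene lists. Each gene of a list is represented by its tested probe set with the highest mean. A called gene of a list that 1 line kept under 17.3 on each array has its fold given as a bound against that level. The procedure was run on simulated data with changes placed only in brighter probe sets, and the outcome is not given here. Alternatives were other scalings, offsets and filters, no trend, a replicate block and each array left out in turn.

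Members and lists were chosen with earlier results of these data known. All member probe sets, all other BCL-2 family genes and up to 3 called genes per direction of each other list are named; uncalled genes beyond these, the neighbours and the markers were chosen after their values were seen. Promoters came from a RefSeq table of GRCm38.p6 and were searched for 9 of the 10 members. Chromosome 18, where Pmaip1 lies, was left out of that search.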

Additional observations from a re-analysis of the deposited data

How the results depend on the processing

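Over 14 alternatives 9 of the 13 called member probe sets stayed called: all 3 of Bid, 5 of 6 of Mcl1 and that of Bnip3. The exceptions were Bcl2l11 1435448_at, Bbc3 1423315_at and Mcl1 1416881_at without scaling, and Bcl2 1422938_at under 6 alternatives. The member sets called higher numbered 12, 8 without scaling, 11 to 13 when each array was left out in turn and 11 to 13 otherwise, and 1 was lower throughout. List genes called higher numbered 19, but 9 without scaling and 13 to 17 with an array left out, and those lower 21 and 17 to 23. With the replicate number as a block 12 member sets were higher and 1 lower. Same-numbered deviations correlated at 0.014, which with 2 arrays per line cannot decide whether same-numbered samples were handled together. The sign turned for 17 values of uncalled sets, and the cause was not tested. Without scaling these were Bcl2l11 1426334_a_at (-0.11), Bcl2l1 1420888_at (-0.085) and 1426191_a_at (-0.15). With median scaling they were Bcl2l11 1435449_at (0.054), Bak1 1418991_at (0.019) and 1425716_s_at (0.013), and with quantile normalization 1435449_at (0.11) and 1425716_s_at (0.061). Without L929 replicate 1 they were 1435449_at (0.29) and 1425716_s_at (0.00095), and without L929 replicate 2 Bcl2l11 1456006_at (0.25) and 1418991_at (0.031). Without NIH3T3 replicate 1 it was Bcl2l1 1420887_a_at (0.14), and without NIH3T3 replicate 2 Bcl2l11 1426334_a_at (-0.017), 1435449_at (0.33), 1456005_a_at (0.0051) and Bak1 1418991_at (0.035). With an array left out, these sets ranged from -0.017 to 0.27 (1426334_a_at), -0.34 to 0.33 (1435449_at), -0.20 to 0.0051 (1456005_a_at), -0.80 to 0.25 (1456006_at), -0.12 to 0.035 (1418991_at), -0.092 to 0.00095 (1425716_s_at) and -0.44 to 0.14 (1420887_a_at). The stricter filter left 22 member sets to test. With 2 arrays per line, their number limits the precision, and signals near the filter level of 17.3 are the least certain.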
